A study of Mus musculus with 22 samples.

Results

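Complement genes, 9 in number, are described here across serially passaged mouse embryonic fibroblasts (MEFs), mixed connective-tissue cells that lose the ability to divide as they are passaged. The members were listed by name, not by a measured value, and all 9 were found among the 55401 gene identifiers of the deposited counts. They are C1qa, C1qb and C1qc, C3, C4b, C3ar1, C5ar1, Cfp and Serping1. Members and lists of other genes were, however, chosen with earlier results of these data known. Their counts beside shares over all genes are therefore descriptions and not independent tests. RNA-seq was performed in 22 libraries of MEFs that carried or lacked S6 kinases, kinases of the mTOR pathway, and the comparisons ask how their transcripts differ with passage and with the loss of the kinases. The S6K1 set holds 4 libraries of early wild-type (WT) MEFs at passage 3, 4 of late WT MEFs at passage 8 and 3 of late S6K1 knockout (KO) MEFs at passage 8. The S6K1/S6K2 set holds 4 libraries of early WT MEFs at passage 3, 4 of late WT MEFs at passage 8 and 3 of late double knockout (DKO) MEFs at passage 8 that lack both kinases. Early KO and early DKO MEFs were not analysed here.

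Several features limit the groups as models. The MEFs were prepared from whole C57BL/6 embryos after the head and viscera had been removed, so they are mixed primary cultures and not a line or a clone. S6K1 WT and KO embryos were littermates, whereas the WT controls of the DKO embryos came from other mothers, so genotype and litter cannot be told apart in the DKO comparison. The labels do not tie a library to an embryo or a mother, and p-values therefore measure only the spread between these libraries.

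Complement is a cascade of plasma proteins that tags microbes and dying cells for removal. C1q, a recognition protein assembled from the A, B and C chains that C1qa, C1qb and C1qc encode, starts the classical pathway, whose proteases cleave C4 and then C3, the component on which all routes converge. Fragments of C3 and C5 attract and activate myeloid cells through the receptors encoded by C3ar1 and C5ar1, properdin (Cfp) stabilizes the convertase of the alternative pathway, and C1 inhibitor (Serping1) blocks the C1 proteases. Macrophages are a main source of C1q in tissues, myeloid cells carry the receptors and release properdin, and hepatocytes supply most circulating C3 and C4, while fibroblasts also make C1 inhibitor and other components.

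RefSeq promoters on GRCm38.p6, which is the mm10 build, were found for 6 of the 9 genes, C1qb, C1qc, C3, C3ar1, C5ar1 and Cfp. The 250 bases before the start site are printed, 5′ to 3′ on the minus strand, for C1qb, C1qc and C3ar1, whose levels followed the macrophage markers within groups, and for C3, whose level did not. C5ar1 and Cfp, whose levels followed these markers as well, are not printed. The start site is that of the promoter record. For C1qc and C5ar1 it lies inside the gene span given below, and so does part of the window. Capitals mark matches on either strand to 6 short motifs, which are GAGGAA (the core of sites for the ETS factor PU.1 of myeloid cells), TTGCNNAA (C/EBP type), GAAANNGAA (IRF type), TGANTCA (AP-1 type), TATAAA and the kappa-B consensus.
C1qb, chr4:136886201-136886450: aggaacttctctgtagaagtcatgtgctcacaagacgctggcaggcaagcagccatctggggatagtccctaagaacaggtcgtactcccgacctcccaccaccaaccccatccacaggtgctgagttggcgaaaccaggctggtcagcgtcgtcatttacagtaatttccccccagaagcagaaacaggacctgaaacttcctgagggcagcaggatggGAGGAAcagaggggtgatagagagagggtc
C1qc, chr4:136892915-136893164: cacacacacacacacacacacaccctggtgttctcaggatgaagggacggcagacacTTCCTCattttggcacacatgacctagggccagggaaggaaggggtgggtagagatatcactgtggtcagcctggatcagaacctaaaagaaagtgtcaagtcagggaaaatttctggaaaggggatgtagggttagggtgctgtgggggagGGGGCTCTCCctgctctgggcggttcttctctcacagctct
C3ar1, chr6:122856158-122856407: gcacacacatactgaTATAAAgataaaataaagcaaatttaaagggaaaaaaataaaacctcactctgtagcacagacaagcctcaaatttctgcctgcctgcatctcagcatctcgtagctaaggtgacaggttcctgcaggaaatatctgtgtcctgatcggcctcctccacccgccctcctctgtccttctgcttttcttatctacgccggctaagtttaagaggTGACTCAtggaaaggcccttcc
C3, chr17:57228137-57228386: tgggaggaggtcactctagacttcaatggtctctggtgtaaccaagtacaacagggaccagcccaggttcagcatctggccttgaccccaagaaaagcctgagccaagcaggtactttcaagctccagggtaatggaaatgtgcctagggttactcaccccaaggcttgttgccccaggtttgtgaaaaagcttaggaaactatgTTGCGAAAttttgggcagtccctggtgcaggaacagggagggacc

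GAGGAA or its complement was found once in C1qb, at position -30 from the start site, and once in C1qc, at -193. It was absent from C3ar1, C5ar1, Cfp and C3, and it was present in 23.25% of the 32851 promoters searched. The kappa-B consensus matched once in C1qc, at -41 (7.25% of promoters). C3ar1 held TGACTCA at -22 (AP-1 type, 6.75% of promoters) and TATAAA at -235 (12.37%). The C3 promoter held TTGCGAAA at -45 (C/EBP type, 9.56% of promoters). Of the promoters not printed, C5ar1 held 1 match to the IRF type (7.13% of promoters), which lies inside the gene span, and Cfp held none. No 2 matches overlapped, and a match describes letters and not a bound site.

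The 9 genes lie on 6 chromosomes and are all on the minus strand. The C1q genes are neighbours on chromosome 4 (C1qb at chr4:136880126-136886200, C1qc at chr4:136889801-136892936 and C1qa at chr4:136895916-136898844). C3 (chr17:57203967-57228136) and C4b (chr17:34728139-34743902) are on chromosome 17, C3ar1 is at chr6:122847140-122856157, C5ar1 at chr7:16246743-16259540, Cfp at chrX:20925454-20931555 and Serping1 at chr2:84765360-84775444 (GRCm38). No exon of another gene overlapped theirs in GENCODE vM1, but C4b has a near-identical copy, C4a, and how reads shared by both were counted is not given in the sources used here.

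Total counts per library were 10742454 to 17314832, so that 3 counts correspond to 0.161 to 0.290 CPM, here counts scaled to the library total times a TMM factor (0.853 to 1.11), which corrects for differences in composition. Rps6kb1, which encodes S6K1, was at 14.2 to 23.0 CPM in KO and at 55.6 to 75.3 CPM in late WT MEFs of the same set. In the S6K1/S6K2 set Rps6kb1 was at 20.4 to 28.3 CPM in DKO and 64.6 to 87.5 CPM in late WT MEFs. Rps6kb2 (S6K2) was there at 0.484 to 1.36 CPM in DKO and 11.2 to 16.4 CPM in late WT MEFs. All 13 fibroblast markers were present with summed levels of 19755 to 40118 CPM. Macrophage markers were present as well, 18 of 19 at a mean of at least 1 CPM with Lyz2 highest, and Cd163 was at 0 in all libraries. Their summed level in the S6K1 set was 410 to 923 CPM in early WT, 4852 to 9968 CPM in late WT and 3162 to 4336 CPM in late KO libraries. Among the S6K1/S6K2 libraries the sum was 530.3 to 1689 CPM (early WT), 6875 to 11897 CPM (late WT) and 880.7 to 3254 CPM (late DKO), with replicate 1 the highest of the DKO group. Hepatocyte markers summed to at most 1.57 CPM and neutrophil markers to at most 0.614 CPM in any library.

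Per length, the members differed widely in level. C1qa, C1qb and C1qc were highest, with group means of 74.7 to 572, 56.8 to 455 and 40.4 to 344 CPM per kilobase of transcript. Cfp (8.14 to 60.8), Serping1 (5.84 to 14.6), C5ar1 (3.38 to 19.7) and C3ar1 (2.43 to 27.5 CPM per kilobase) followed with ranges that overlapped each other. C3 had group means of 0.186 to 1.95 CPM per kilobase and C4b of 0.0473 to 0.245, so both central components were measured at lower levels than every C1q chain in every group. C3 rested on 9 to 220 counts and C4b on 0 to 25 counts per library, which limits what could be detected for C4b.

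C1q transcripts were high in late WT MEFs of both sets and low in early WT and in DKO MEFs. C1qa was at 57.7, 89.1, 91.8 and 71.9 CPM in the early WT libraries of the S6K1 set, at 934, 432, 549 and 463 CPM in the late WT libraries and at 226, 297 and 348 CPM in the KO libraries. In the S6K1/S6K2 set it was at 59.7, 33.6, 113 and 167 CPM in early WT, at 396, 595, 526 and 351 CPM in late WT and at 164, 50.6 and 31.5 CPM in DKO libraries. Every late WT library was above every early WT library of its set, and every KO and DKO library was below every late WT library. C1qa rose with passage by a log2 fold change of 2.93 ± 0.27 (SE) in the S6K1 set (edgeR's quasi-likelihood test, adjusted p = 4.35e-05) and of 2.36 ± 0.56 in the S6K1/S6K2 set (edgeR, adjusted p = 0.0209). The other chains gave like values, since C1qb rose by 3.00 ± 0.33 and 2.30 ± 0.50 and C1qc by 3.09 ± 0.28 and 2.57 ± 0.53 on the log2 scale in the S6K1 and S6K1/S6K2 sets (edgeR, adjusted p = 3.8e-05 to 0.0131).

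In DKO MEFs the 3 chains were lower than in late WT MEFs. C1qb was at 142, 42.2 and 37.0 CPM in the DKO libraries against 402, 556, 452 and 343 CPM in late WT, and C1qc was at 135, 47.8 and 29.6 CPM against 347, 471, 443 and 291 CPM. DKO replicate 1 was the highest of its group for each chain, as it was for the macrophage markers. The log2 fold change was -2.53 ± 0.63 for C1qa, -2.59 ± 0.56 for C1qb and -2.47 ± 0.59 for C1qc (edgeR, adjusted p = 0.0469, 0.0267 and 0.0383). Single KO MEFs had smaller differences, of -1.04 ± 0.28 for C1qa, -0.84 ± 0.34 for C1qb and -0.87 ± 0.28 for C1qc, which did not pass the threshold (edgeR, adjusted p = 0.234, 0.402 and 0.314).

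**Figure D1:**
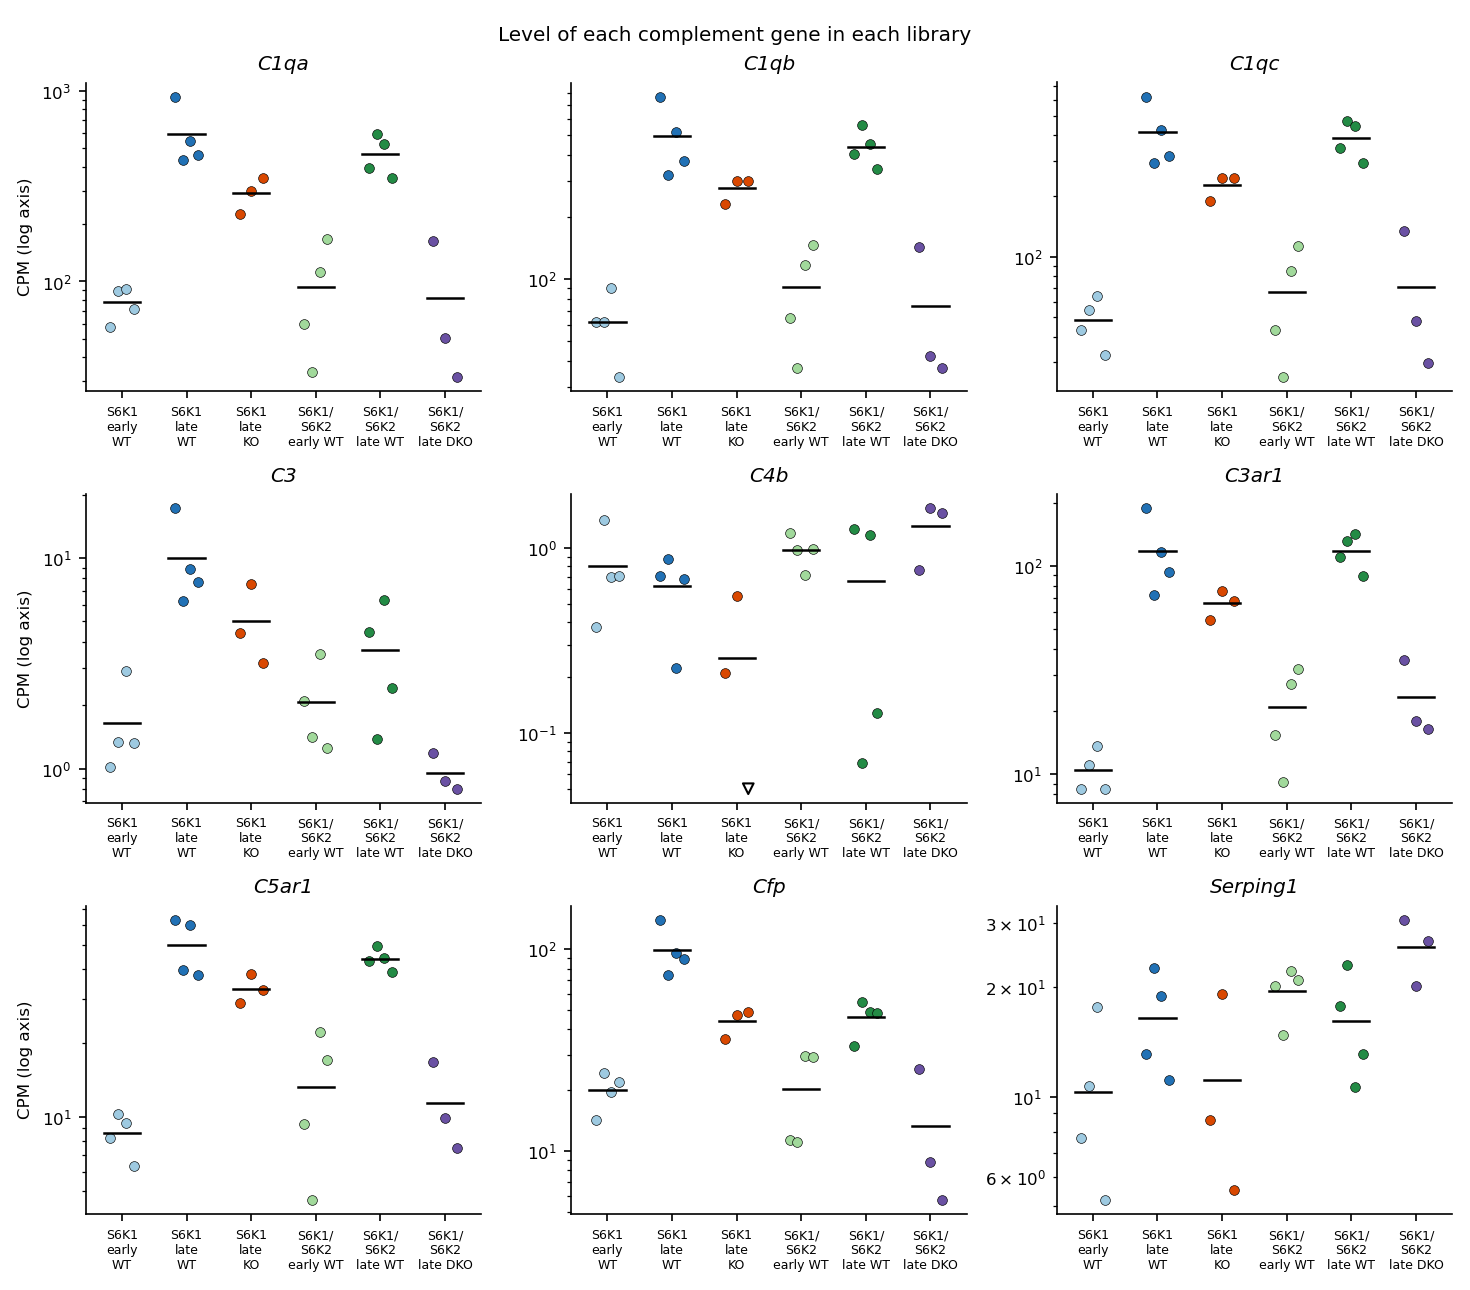
Level of each of the 9 complement genes in CPM (vertical log axis, its range set for each gene) in the 6 groups (horizontal axis), with 1 point a library and a bar at the group mean; the open triangle marks a C4b library at 0, which has no place on a log axis. The C1q genes, C3ar1, C5ar1 and Cfp sit higher in all late WT than in all early WT libraries of their set, while C4b and Serping1 overlap.

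The shares of the C1q chains varied less than their levels. Over the 22 libraries the summed CPM of the 3 chains ran from 95.8 to 2326 CPM, while C1qa made up 32.1 to 52.2% of it (median 36.8%), C1qb 24.3 to 38.4% (median 34.5%) and C1qc 23.5 to 34.0% (median 27.8%). Early WT replicate 4 of the S6K1 set had the highest C1qa share (52.2%) and the lowest C1qb share (24.3%), and without it C1qa ranged up to 43.4% and C1qb down to 30.0%. Per kilobase of transcript C1qc was the lowest of the 3 chains in 21 of 22 libraries, and C1qa was above C1qb in 18. No test was made of the shares.

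**Figure D2:**
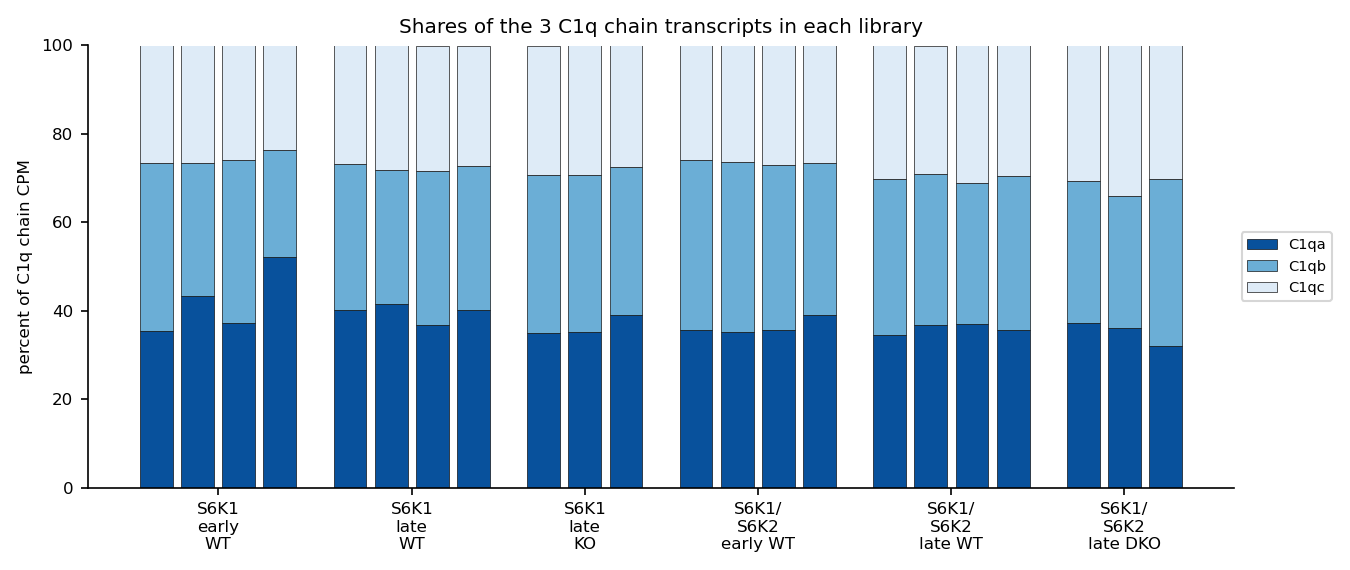
Percent of the summed C1q chain CPM (vertical axis) taken by C1qa, C1qb and C1qc in each of the 22 libraries, 1 bar a library, grouped on the horizontal axis. C1qa takes 32.1 to 52.2%, with the highest share in early WT replicate 4 of the S6K1 set.

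The central components C3 and C4b were measured at low levels. C3 had the sign of C1q in all 4 comparisons. It was at 1.02, 1.35, 2.91 and 1.32 CPM in early WT, at 17.2, 6.23, 8.86 and 7.73 CPM in late WT and at 4.42, 7.50 and 3.18 CPM in KO libraries of the S6K1 set. The S6K1/S6K2 set had 2.10, 1.41, 3.50 and 1.26 CPM in early WT, at 4.47, 1.38, 6.33 and 2.43 CPM in late WT and at 1.18, 0.871 and 0.803 CPM in DKO libraries. Late and early WT libraries were separate in the S6K1 set and overlapped in the S6K1/S6K2 set, and late WT replicate 2 of the latter had the highest C1qa and the lowest C3 of its group. C3 rose with passage by 2.58 ± 0.43 in the S6K1 set (edgeR, adjusted p = 0.00229), and the difference in the S6K1/S6K2 set was 0.85 ± 0.46 (edgeR, adjusted p = 0.233, 95% interval -0.15 to 1.85). The difference between the sets was itself -1.77 ± 0.65 (S6K1/S6K2 set minus S6K1 set) and did not pass the threshold (edgeR interaction term, adjusted p = 0.337).

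For C3, every DKO library was below every late WT library, with a log2 fold change of -1.95 ± 0.55 that missed the threshold in edgeR (adjusted p = 0.068) and passed it in DESeq2 (adjusted p = 0.0115). In single KO MEFs the log2 fold change of C3 was -0.99 ± 0.44 (edgeR, adjusted p = 0.458), and the groups overlapped.

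C4b was close to the floor. It was at 0.375, 1.42, 0.698 and 0.704 CPM in early WT, 0.706, 0.879, 0.226 and 0.679 CPM in late WT and 0.210, 0.553 and 0 CPM in KO libraries of the S6K1 set. The S6K1/S6K2 set had 1.22, 0.979, 0.714 and 0.993 CPM in early WT, 1.27, 0.0691, 1.18 and 0.128 CPM in late WT and 0.759, 1.65 and 1.54 CPM in DKO libraries. The groups overlapped in all 4 comparisons, and none passed the threshold (edgeR, adjusted p = 0.525 to 0.772). Within late WT of the S6K1/S6K2 set, replicates 1 and 3 were the higher pair for both C4b and C3, and replicates 2 and 4 the lower. The copy C4a had group means of 0.115 to 0.538 CPM.

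Both receptors of the complement fragments had the sign of C1q in each comparison. C3ar1, the receptor for C3a, was at 8.52, 11.1, 13.7 and 8.53 CPM in early WT, 189, 72.3, 117 and 93.2 CPM in late WT and 54.9, 75.5 and 67.7 CPM in KO libraries of the S6K1 set. In the S6K1/S6K2 set it was at 15.5, 9.18, 27.2 and 31.9 CPM in early WT, 110.4, 131, 142 and 89.2 CPM in late WT and 35.4, 18.1 and 16.5 CPM in DKO libraries. Early and late WT libraries were separate in both sets, and so were DKO and late WT libraries. C3ar1 rose with passage by 3.49 ± 0.29 in the S6K1 set and 2.53 ± 0.38 in the S6K1/S6K2 set (edgeR, adjusted p = 2.21e-05 and 0.00223), and it was lower in DKO MEFs by a log2 fold change of -2.36 ± 0.42 (edgeR, adjusted p = 0.0125). In KO MEFs it overlapped late WT with a log2 fold change of -0.84 ± 0.29 (edgeR, adjusted p = 0.341).

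C5ar1, the receptor for C5a, was at 8.26, 10.3, 9.49 and 6.33 CPM in early WT, 63.0, 39.3, 60.2 and 37.7 CPM in late WT and 29.0, 37.97 and 32.6 CPM in KO libraries of the S6K1 set. C5ar1 in the S6K1/S6K2 set was at 9.34, 4.59, 22.1 and 17.1 CPM in early WT, 43.0, 49.2, 44.0 and 38.8 CPM in late WT and 16.8, 9.87 and 7.48 CPM in DKO libraries. Its lowest late WT library was above its highest early WT library in each set, and its highest DKO library was below all late WT libraries. C5ar1 rose with passage by 2.54 ± 0.22 and 1.76 ± 0.40 in the S6K1 and S6K1/S6K2 sets (edgeR, adjusted p = 2.62e-05 and 0.0164) and was lower in DKO MEFs by -1.96 ± 0.45 (edgeR, adjusted p = 0.0329). The log2 fold change in KO MEFs was -0.60 ± 0.22 (edgeR, adjusted p = 0.37). C5ar2, the second C5a receptor, was at group means of 0.159 to 0.861 CPM and passed the threshold in no comparison (edgeR). Its unadjusted p was below 0.05 with passage in both sets and in DKO MEFs (edgeR).

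Cfp, which encodes properdin, was at 14.3, 24.4, 19.6 and 21.9 CPM in early WT, 139.6, 74.3, 95.1 and 88.9 CPM in late WT and 35.7, 47.0 and 49.0 CPM in KO libraries of the S6K1 set. Cfp in the S6K1/S6K2 set was at 11.4, 11.01, 29.6 and 29.2 CPM in early WT, 33.0, 54.7, 48.5 and 48.4 CPM in late WT and 25.5, 8.81 and 5.69 CPM in DKO libraries. Late WT libraries were above early WT libraries in both sets, and KO and DKO libraries were below late WT libraries. The rise with passage passed the threshold in the S6K1 set (log2 fold change 2.31 ± 0.22, edgeR, adjusted p = 5.93e-05) and not in the S6K1/S6K2 set (1.22 ± 0.46, edgeR, adjusted p = 0.102; DESeq2, adjusted p = 0.0357). Cfp differed by -1.18 ± 0.24 in KO MEFs (edgeR, adjusted p = 0.154; DESeq2, adjusted p = 0.00133) and by -1.82 ± 0.53 in DKO MEFs (edgeR, adjusted p = 0.0808; DESeq2, adjusted p = 0.00418).

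Serping1, the C1 inhibitor gene, passed the threshold in none of the 4 comparisons (edgeR), with 1 (DKO) at an unadjusted p below 0.05 and 0 called by DESeq2. It was at 7.72, 10.7, 17.7 and 5.19 CPM in early WT, 13.1, 22.5, 18.9 and 11.1 CPM in late WT and 8.63, 19.1 and 5.53 CPM in KO libraries of the S6K1 set. Serping1 in the S6K1/S6K2 set was at 20.2, 14.7, 22.2 and 21.0 CPM in early WT, 17.7, 22.9, 10.6 and 13.1 CPM in late WT and 30.6, 20.1 and 26.8 CPM in DKO libraries. The groups overlapped in all 4 comparisons. Its log2 fold changes with passage were 0.66 ± 0.42 and -0.25 ± 0.23 in the S6K1 and S6K1/S6K2 sets (edgeR, adjusted p = 0.337 and 0.498), and in DKO MEFs it differed by 0.67 ± 0.25, opposite in sign to the C1q genes and not past the threshold (edgeR, adjusted p = 0.167).

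With passage in the S6K1 set, 7 of the 9 genes rose and C4b and Serping1 did not pass the threshold, where 6.96% of the 14132 genes tested rose (edgeR, adjusted p below 0.05). The median log2 fold change of the 9 genes was 2.58, and that of all genes tested was -0.04. The same 7 genes had all late WT libraries above all early WT libraries, which held for 9.21% of genes. In the S6K1/S6K2 set 5 of the 9 rose, C1qa, C1qb, C1qc, C3ar1 and C5ar1, where 8.28% of the 14365 genes tested rose and 4.89% fell. The median of the 9 genes was 1.76 and that of all genes 0.01, and 6 of the 9 had late WT above early WT in all libraries against 10.3% of genes. Without early WT replicate 1, 2 of the 9 were called in the S6K1/S6K2 set (C1qc and C3ar1), and the same 2 were called with no filter on low counts.

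In late KO MEFs all 9 genes had negative log2 fold changes with a median of -0.87, and 0 of 9 passed the threshold in edgeR, where 0.0354% of genes were called lower. At an unadjusted p below 0.05 edgeR had 7 of the 9, and 1499 of all 14132 genes, and DESeq2 called 2, C1qa and Cfp. In 4 of the 9, C1qa, C1qb, C1qc and Cfp, all KO libraries were below all late WT libraries, as in 6.19% of genes. Y-linked genes were expressed in 3 of 3 KO and 1 of 4 late WT libraries, and with their level as a covariate 0 of 9 were called as well.

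In late DKO MEFs 5 of the 9 genes were lower, C1qa, C1qb, C1qc, C3ar1 and C5ar1, where 3.95% of genes were called lower. The median log2 fold change was -1.96 for the 9 genes and -0.01 for all genes, and in 7 of the 9, all but C4b and Serping1, every DKO library was below every late WT library, as in 10.0% of genes. These calls rested on few libraries, because without DKO replicate 2 or replicate 3 none was called, without late WT replicate 3 it was 1 (C3ar1), without late WT replicate 2 it was 2 (C3ar1 and C3) and without early WT replicate 1 it was 3 (C1qb, C3ar1 and C5ar1). DKO replicates 2 and 3 had the lower macrophage markers of the group. Y-linked genes were expressed in 1 of 3 DKO and 3 of 4 late WT libraries, and with their level as a covariate 2 of the 9 were called (C1qb and C3ar1), as were 2 with no filter on low counts (C3ar1 and C3).

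**Figure D3:**
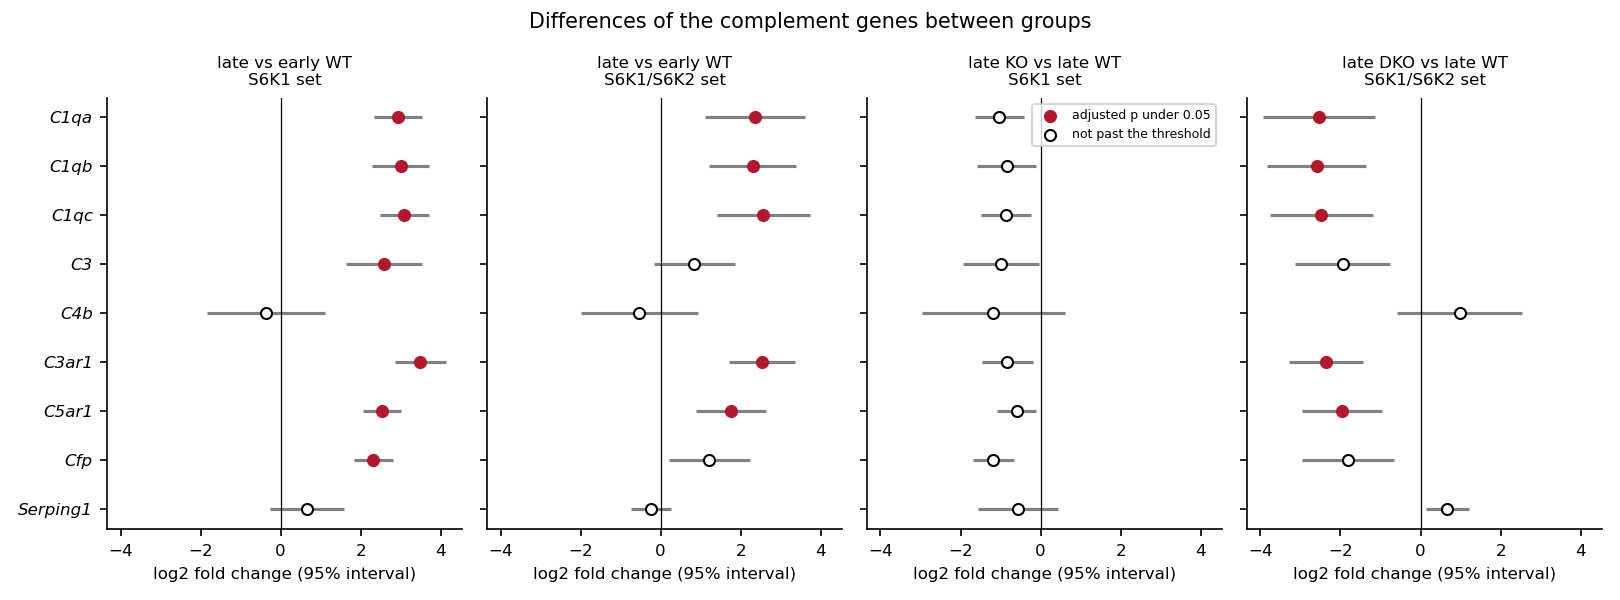
Log2 fold change of each gene (horizontal axis, point) with its 95% interval (line) from edgeR in the 4 comparisons, with filled points where the adjusted p was below 0.05. The C1q genes and both receptors lie at 1.76 to 3.49 with passage and at -2.59 to -1.96 in DKO MEFs, while Serping1 lies at -0.25 to 0.67 outside the KO comparison.

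The passage and loss comparisons of a set share its late WT libraries, so a high or low late WT library enters both. Whether an effect differed between the sets was tested with an interaction term in 1 model of the 22 libraries. For passage 0 of the 9 genes passed, where 0.712% of 14886 genes did, and 0 were called by DESeq2. At an unadjusted p below 0.05 edgeR had 3 of the 9 (C3, C3ar1 and Cfp) and 1421 of all 14886 genes. For the loss of the kinases 0 of 9 passed, where 0.00672% of genes did, and 0 were called by DESeq2. Unadjusted p was below 0.05 in edgeR for 6 of the 9 (C1qa, C1qb, C1qc, C3ar1, C5ar1 and Serping1) and for 1626 of all 14886 genes. The difference for C3ar1 was -1.51 ± 0.51 (DKO effect minus KO effect, edgeR, adjusted p = 0.311), and for Serping1 it was 1.24 ± 0.55 in the other direction (edgeR, adjusted p = 0.424).

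Myeloid and fibroblast sources were compared through marker genes of both cell types. Macrophage markers moved in the same direction as C1q in each comparison, because 18 of 18 tested markers rose with passage in the S6K1 set and 17 of 18 in the S6K1/S6K2 set, 0 of 18 passed in KO MEFs with all 18 negative, and 16 of 18 fell in DKO MEFs. Of the 13 fibroblast markers, 4 fell with passage in the S6K1 set and 2 in the S6K1/S6K2 set, and in DKO MEFs 1 (Pdgfrb) rose. Among all genes tested, 6.96% rose and 5.97% fell with passage in the S6K1 set, and 8.28% rose and 4.89% fell in the S6K1/S6K2 set. The share called lower was 0.0354% in KO MEFs and 3.95% in DKO MEFs, where 0.821% were called higher. In bulk RNA, fewer cells of a type and less RNA per cell cannot be told apart. The summed macrophage markers of late WT libraries overlapped neither those of early WT nor those of KO or DKO libraries of the same set, so marker level and group cannot be told apart in these comparisons. Mesothelial markers moved the other way with passage, since 2 of 3, Msln and Upk3b, fell in each set, and their summed level went from 8.599 to 23.9 CPM in early WT to 0.799 to 4.23 CPM in late WT libraries of the S6K1 set and from 30.5 to 68.8 CPM to 1.33 to 4.86 CPM in the S6K1/S6K2 set. Of the 3 epithelial markers tested, 1 fell in each set (Krt19 in the S6K1 set and Krt8 in the S6K1/S6K2 set). Their part in the complement values was not tested. With the mean macrophage marker level as a covariate 0 of the 9 genes were called in each of the 4 comparisons, and the calls over all genes went from 1827 to 1, from 6 to 2, from 1892 to 4 and from 686 to 18 for passage and KO in the S6K1 set and for passage and DKO in the S6K1/S6K2 set.

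Within groups, where neither passage nor genotype differs, the members differed in the marker list they varied with. Deviations from group means over the 22 libraries correlated with those of the macrophage markers at r = 0.985 (Spearman's rho 0.981) for C1qc, 0.981 (0.972) for C1qb, 0.971 (0.958) for C3ar1, 0.947 (0.905) for C1qa, 0.915 (0.947) for C5ar1 and 0.844 (0.780) for Cfp. Permutation within groups gave p = 1e-05, the smallest that 100000 resamples can give, for C1qa, C1qb, C1qc and C3ar1, 4e-05 for C5ar1 and 0.00143 for Cfp. Over the 18 relations computed, of 9 genes with 2 lists, these 6 had Benjamini-Hochberg adjusted permutation p of 4.5e-05 to 0.00429. Without the 2 libraries farthest from the median, r was 0.711 to 0.972 for the 6 genes. All genes of a library share its depth and scaling, so r describes these libraries and not a cell of origin.

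C3, C4b and Serping1 correlated less with the macrophage markers, at r = 0.376 (rho 0.397, permutation p = 0.0856), -0.142 (rho -0.206, permutation p = 0.428) and 0.374 (rho 0.430, permutation p = 0.0418, adjusted 0.0940). Serping1 was the member that followed the fibroblast markers, with r = 0.679 (rho 0.721, permutation p = 0.00382, adjusted 0.00982) and r = 0.714 without the 2 farthest libraries. When the fibroblast list was summed in place of averaged, r for Serping1 was 0.048 (permutation, adjusted p = 0.867), and C1qa, C1qb, C1qc and Cfp passed with negative r of -0.498, -0.552, -0.520 and -0.472 (permutation, adjusted p = 0.0319 to 0.0416). With the averaged list the other 8 genes had r of -0.301 to 0.135 with the fibroblast markers and none passed the threshold (permutation, adjusted p = 0.144 to 0.842). For C1qc the highest library and the lowest library of each group were also the highest and lowest for macrophage markers in 6 of 6 groups, and for C4b the lowest coincided in 0 of 6.

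**Figure D4:**
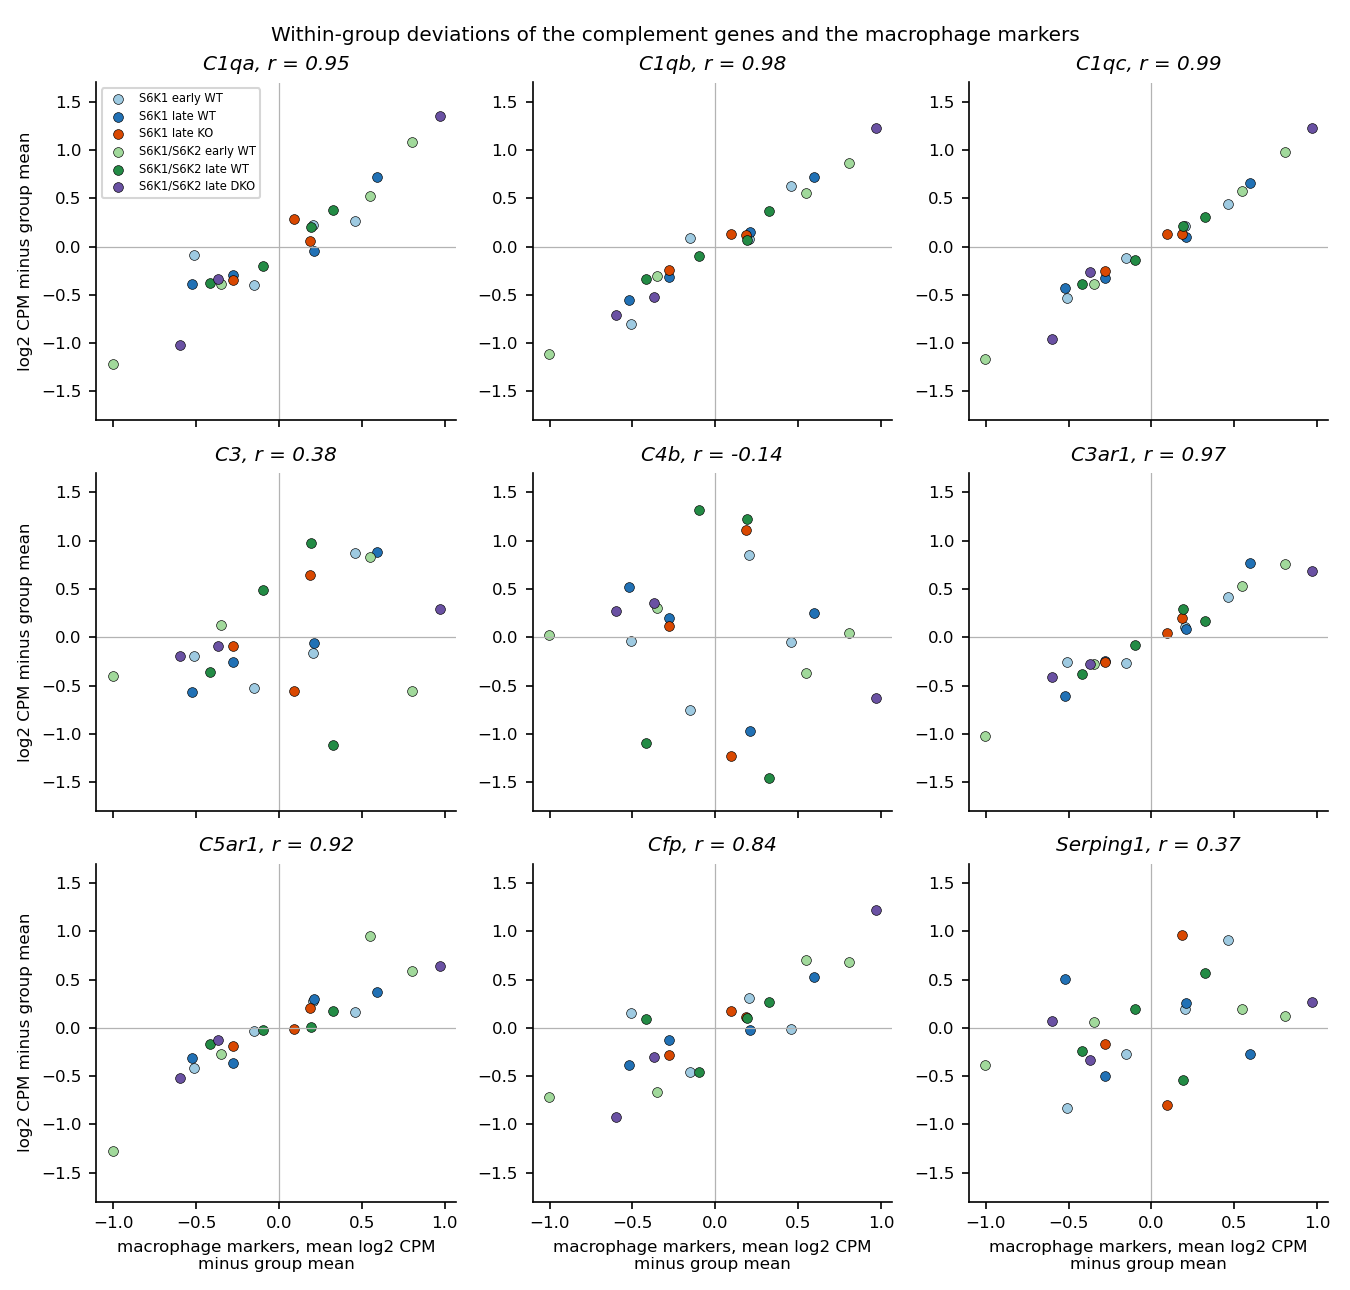
Deviation of each gene's log2 CPM from its group mean (vertical axis) against that of the mean macrophage marker level (horizontal axis, log2), 1 point a library, coloured by group, with Pearson's r over 22 libraries above each panel. The C1q genes, C3ar1, C5ar1 and Cfp lie along a rising line, and C4b, C3 and Serping1 scatter.

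Scaling each gene to the summed macrophage markers is a description over all 22 libraries, with the group differences included. A gene that shares the markers' group differences loses spread in this ratio, and a gene of even level gains it. The values below therefore do not add to the within-group correlations. Lyz2 weighed most in the sum, with means of 4915 and 6779 CPM in late WT of the S6K1 and S6K1/S6K2 sets. Medians of the sum there were 7145 and 9398 CPM. Over the 22 libraries the SD of log2 CPM went from 1.48 to 0.291 for C3ar1, from 1.497 to 0.332 for C1qc, from 1.46 to 0.407 for C1qb, from 1.48 to 0.528 for C1qa and from 1.17 to 0.570 for C5ar1. It changed less for Cfp, from 1.18 to 0.936, and was 1.19 before and after for C3. For Serping1 it grew from 0.698 to 1.66 and for C4b from 1.02 to 2.23.

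**Figure D5:**
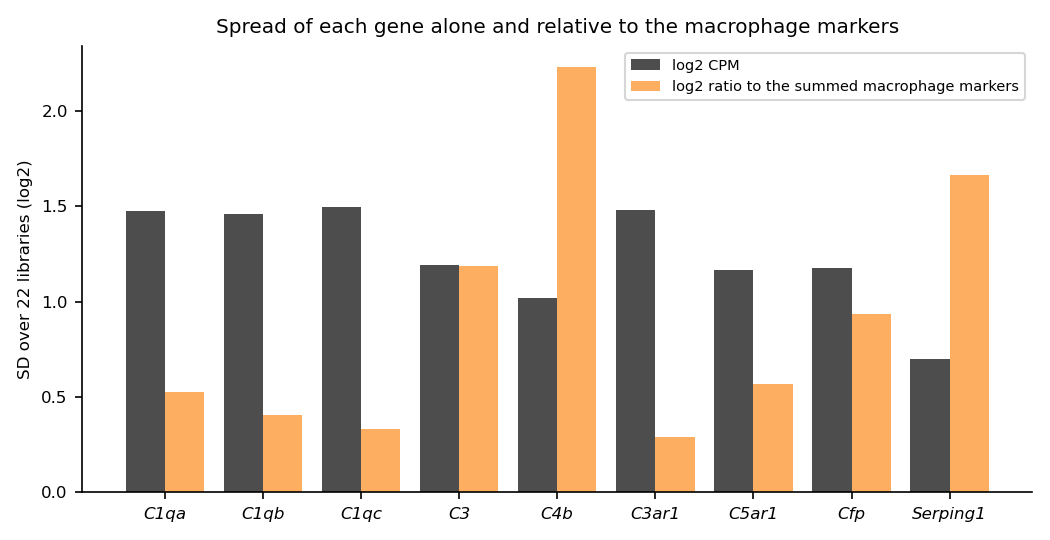
SD over 22 libraries (vertical axis, log2) of each gene's log2 CPM and of its log2 ratio to the summed macrophage markers (horizontal axis, genes). The ratio varies less than the level for the C1q genes, C3ar1, C5ar1 and Cfp, equally for C3 and more for C4b and Serping1.

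The r of this paragraph were not centred by group, so differences by passage and genotype enter them. The genes whose log2 CPM was most like each member over the 22 libraries were ranked among 12460 genes. For C1qa they were Alox5ap (r = 0.986), Fcrls and Itgam, for C1qb Fcrls (0.990), Ptpn6 and Lcp1, for C1qc Alox5ap (0.990), Ptpn6 and Fcrls, and for C3ar1 Trem2 (0.990), Mpeg1 and Pld4. C5ar1 was most like Csf1r (0.983), Tlr13 and Rac2, and Cfp was most like Lrrc25 (0.954), Gmfg and Nfam1. C3 had lower maxima, with Siglece (0.888), Tlr2 and Efhd2, and C4b (Ptx3, 0.842, then Sned1 and Mme) and Serping1 (Arsa, 0.818, then Gaa and Gstm2) were most like other genes. Trem2 and Csf1r are also in the macrophage list. C3 correlated with the C1q genes at r = 0.752 to 0.772. Among the members themselves, C1qb and C1qc were the closest pair (r = 0.993), and C1qb and C4b had the lowest r (-0.477).

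Of 52 other complement genes that were matched, 23 could be tested in the S6K1 set and 26 in the S6K1/S6K2 set. With passage 5 of 23 rose and 0 fell in the S6K1 set, and 6 of 26 rose and 1 fell in the S6K1/S6K2 set, while the medians of the tested genes were 0.30 and 0.37. Over all genes tested, 6.96% rose and 5.97% fell in the S6K1 set, and 8.28% rose and 4.89% fell in the S6K1/S6K2 set. The receptor list moved most, since 3 of its 7 and 8 tested genes rose, Itgam and Itgb2, which form complement receptor 3, and Cd93. Itgam rose by 2.62 ± 0.31 and 2.59 ± 0.43 and Itgb2 by 3.13 ± 0.39 and 2.31 ± 0.38 in the S6K1 and S6K1/S6K2 sets (edgeR, adjusted p = 0.000198 to 0.00329).

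Fcna, a ficolin of the lectin pathway, rose in both sets (log2 fold changes 2.51 ± 0.60 and 1.67 ± 0.48, edgeR, adjusted p = 0.0164 and 0.0397), Colec12 rose in the S6K1/S6K2 set by 0.76 ± 0.15 (edgeR, adjusted p = 0.00779) and Cd109 fell there by 0.957 on the log2 scale (edgeR, adjusted p = 0.0104). In DKO MEFs 4 of 26 were lower and 0 higher, namely Cd93 (-2.64 ± 0.43), Itgam (-2.90 ± 0.49), Itgb2 (-2.14 ± 0.42) and Fcna (-2.87 ± 0.60), with edgeR adjusted p of 0.007 to 0.0192. Over all genes tested, 3.95% were called lower in DKO MEFs and 0.821% higher. In KO MEFs 0 of 23 passed in edgeR, where 0.0425% of all genes did in either direction. At an unadjusted p below 0.05 edgeR had 6 of the 23 and 1499 of all 14132 genes. DESeq2 called 1 of the 23 and 261 of all genes. The C1 proteases C1ra and C1s1, the targets of C1 inhibitor, had means of 15.6 and 36.1 CPM in late WT and 30.9 and 80.2 CPM in DKO libraries of the S6K1/S6K2 set, differences of 0.97 ± 0.30 and 1.14 ± 0.37 that did not pass the threshold (edgeR, adjusted p = 0.1 and 0.118). Most of the alternative and terminal components could not be tested, as 8 of 9 were filtered out as low in each set.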

How the data were processed

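Libraries were made with a stranded mRNA kit and sequenced as single-end reads. The values are raw counts per gene as deposited by the authors. The submitters' processing notes name STAR 2.7.1a, mm10 and DESeq2 1.28.1, while the study's methods name TopHat, HTSeq and mm9. Of the gene identifiers, 41.2% are absent from an mm9 annotation (GENCODE vM1), so the counts were read as mm10. The annotation release and the strand setting of the counting are not given in the sources used here. Symbols were matched for 32589 identifiers, which held 96.98% of counts.

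Genes low in counts were removed (filterByExpr), libraries were scaled by TMM, and edgeR 4.0.16 quasi-likelihood tests were fitted to the 11 libraries of each set or, for interaction terms, to all 22, with Benjamini-Hochberg adjustment over all genes tested and a threshold of 0.05. Levels are CPM over the library total times its TMM factor, per kilobase of the longest coding transcript (GENCODE vM1) where genes are compared. Group-centred log2 CPM with a prior count of 2 was correlated with mean marker levels, using 100000 permutations within groups. DESeq2 1.42.0, other filters and scalings, covariates and leaving out each library were tried as alternatives. Replicates differed by more than sampling noise in all 30 pairs (chi-square per degree of freedom 20.6 to 265.7), and replicate numbers follow accession order. The tests were checked on simulated counts. All 9 members and the called pathway genes were named, except 1 gene that is not reported here, with the 3 genes most like each member. Members and lists were chosen with earlier results of these data known. Liver samples and MEFs given RAS are not analysed here.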

Additional observations from a re-analysis of the deposited data

Results flagged for a closer look

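C1qa made up 39.15% of the summed C1q chain CPM in early WT replicate 4 of the S6K1/S6K2 set, against 35.12 to 35.76% in the other libraries of that group. The gap to the nearest library, as a share of the group's range, was above Dixon's 95% critical value for 4 samples. Of 48 such values in groups of 4 examined, 1 stood apart, and chance gives about 1 in 20.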

How the results depend on the processing

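Of the log2 fold changes recomputed under alternatives that kept all libraries, 204 kept direction and side of the threshold. With direction kept, 10 newly passed it and 18 no longer passed. A further 18 changed sign and were counted only as such, although they include members that the main fit called. All sign changes came with the macrophage marker level as a covariate, under which 0 of 9 members were called in each of the 4 comparisons. They were C1qb -0.514, C3 -1.04 and Serping1 -1.07 (passage, S6K1 set), C1qb 0.295, C1qc 0.081, C3 0.192, C3ar1 0.141 and C5ar1 0.078 (KO), C1qa -0.831, C1qb -0.531, C1qc -0.411, C4b 0.335, C5ar1 -0.456 and Cfp -1.25 (passage, S6K1/S6K2 set) and C1qa 0.377, C1qc 0.276, C5ar1 0.224 and Cfp 0.399 (DKO). Marker level and group are nearly the same variable there. With no filter on low counts 1 member was called in KO (Cfp), 2 in the S6K1/S6K2 passage comparison and 2 in DKO, and with the Y-linked level as a covariate 2 in DKO. DESeq2 called 2 members and 1 pathway gene in KO and 7 pathway genes in DKO. The cause was not tested.

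When 1 library was left out, the number of members called was 7 in every fit for S6K1 passage, 0 for KO and both interaction terms, 2 to 6 for S6K1/S6K2 passage and 0 to 6 for DKO. Of the log2 fold changes with 1 library left out, 360 kept direction and side, 3 newly passed and 27 no longer passed, and none changed sign. Correlations with macrophage markers passed for 6 to 7 members and with fibroblast markers for 1 to 2, and with summed fibroblast markers 4 passed at negative r (C1qa, C1qb, C1qc and Cfp) while Serping1 did not. Those with fibroblast markers that changed sign were small. They were C3 at 0.022 by Spearman's rho, and without the 2 farthest libraries C1qb 0.062, C1qc 0.003, C3 0.212, C3ar1 0.041 and C5ar1 0.135. Leaving out 1 library gave -0.246 to 0.006 for C1qb, -0.206 to 0.152 for C3, -0.003 to 0.282 for C4b and -0.106 to 0.091 for C5ar1. C4b had no value in the S6K1 set when the groups were fitted alone and in 3 of the fits with 1 library left out, being filtered out as low. No paired analysis was possible because the labels give no replicate numbers shared between groups, and the numbers used here name libraries in accession order. With CPM over the plain library total, chosen after seeing the data, the same members had groups that did not overlap (7, 4, 6 and 7 in the 4 comparisons). Depth limits C4b, with 0 to 25 counts a library.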
